A study of Drosophila melanogaster with 6 samples.

Results

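The genes described here lie on chromosome 4 of Drosophila melanogaster, the small dot-shaped chromosome of the fly. A list of 54 named genes of this chromosome was taken. A gene is called measured here if a probe set of the array annotation names it alone, and 44 of the 54 were measured. Of these, 41 carried the listed symbol in the array annotation, and Caps, Thd1 and bip2 were found through an older name as Cadps, Tdg and Taf3. The other 10 (pan, PlexA, RpS3A, Arf102F, Arl4, lgs, PIP4K, pho, JYalpha and CaMKII) were not analysed here. A further 21 genes of the chromosome were measured without being on the list, so that 65 of the 11982 measured genes lay on it. Each gene was represented by its brightest probe set, the one with the highest mean over the 6 arrays. The chromosome was picked out for a shift downward in the same comparison that is described below, so the differences between genotypes are given for its genes as a description, without a test.

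Whole embryos of 2 fly stocks were profiled on Affymetrix arrays, 3 arrays for w1118, labelled wild type, and 3 for a clbn knock-out. Embryos of both were gathered over 0 to 24 h, flies were kept at 25 °C, and the labels give w1118 as the strain background of both stocks. The labels do not say how the knock-out was made, whether it was backcrossed or whether the samples of a stock were separate collections. Loss of clbn and any further difference between the 2 stocks therefore cannot be told apart, and every p-value rests on the spread among these 6 samples alone, which may be technical. In whole embryos of mixed age, fewer cells of a type and less RNA per cell cannot be told apart either. The labels were checked on the targeted gene: Clbn, the fly relative of NEMF, a factor that acts on stalled ribosomes, read 7.86, 8.25 and 8.44 (log2) in w1118 and 5.42, 5.27 and 5.14 in the knock-out. That is a difference of −2.91 log2 (SE 0.15, limma adjusted p = 7.01e-05, and 7.73e-06 to 0.00128 over the alternatives), with no overlap of arrays.

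The fourth chromosome is largely packed in a chromatin state otherwise found near centromeres, with methylated histone H3 and the heterochromatin protein HP1, yet most of its genes are transcribed. The protein Pof, named for painting the fourth, binds its active genes and raises their output, while HP1 dampens it, so that the chromosome is regulated as a unit in flies. It is known for developmental regulators, among them cubitus interruptus (ci), the transcription factor of Hedgehog signalling, and the paired eye selector genes eyeless (ey) and twin of eyeless (toy), and for many genes of neurons.

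Knock-out array 1 stood apart from the other 5 arrays. For the array's control genes actin, GAPDH and eIF-4a, the 3′ probe sets read on average 1.24 log2 above the 5′ ones there, against 0.667 to 0.779 on the others, a measure of how complete the labelled RNA was. Its median over all probe sets that are not controls was 6.17 log2 against 6.29 to 6.36. Over all genes, by brightest probe set, the median of its level minus the w1118 mean was 0.05 log2. The same median was 0.02 and 0.01 in knock-out arrays 2 and 3. The main results below are also given without knock-out array 1.

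Across the listed genes the shift downward came mostly from this array. The median over the 44 genes of the level minus the w1118 mean was −0.33 log2 in knock-out array 1 and −0.01 in knock-out array 3, while in knock-out array 2 exactly 22 of the 44 lay below the w1118 mean. Knock-out array 1 was the lowest of the 6 arrays for 33 of the 44 genes (75%), against 21.6% of all genes measured. With the 3 knock-out arrays averaged, 32 of 44 listed genes (72.7%) had a difference below 0 and the median was −0.13 log2, against 44% of all genes and a median of 0.02. Without knock-out array 1 the listed genes had a median of −0.02, and 23 of 44 (52.3%) were below 0, against 46.2% of all genes and a median of 0.01. The medians of the arms X, 2L, 2R, 3L and 3R lay between 0.01 and 0.03 with all arrays. The median of the listed genes was −0.21 without knock-out array 2, and −0.06 both with array weights and with centring on array medians. The weights were 4.456 for w1118 array 1, 0.369 for knock-out array 1 and 0.651 to 1.110 for the others. Results with array weights therefore lean most on w1118 array 1. Centring raised the medians of the other arms too, to 0.09 to 0.10. Taken relative to the median of all genes, the listed median was −0.15 in the main fit, −0.15 with centring and −0.07 with array weights.

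**Figure D1:**
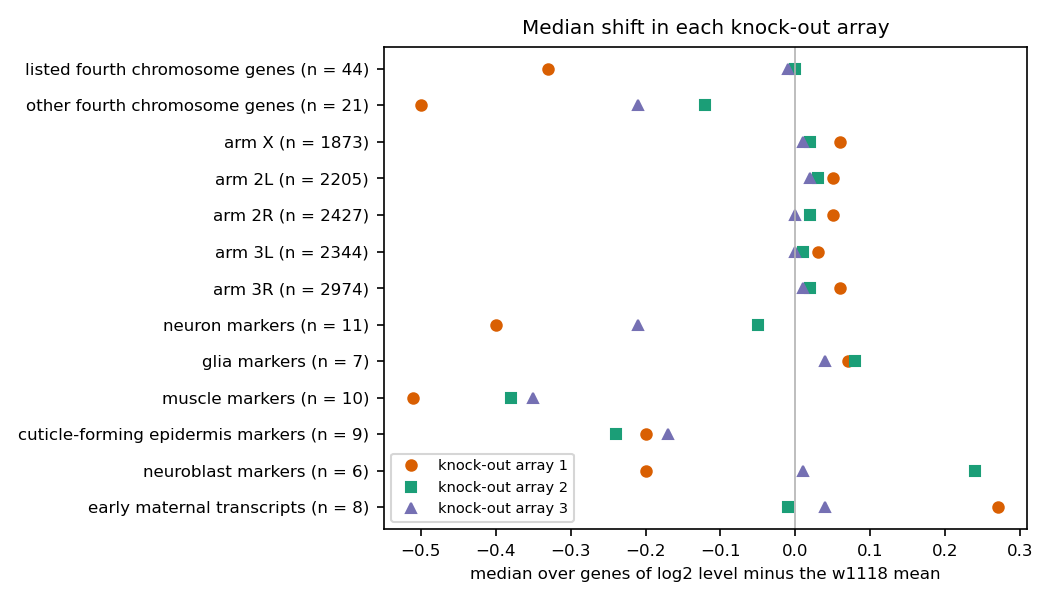
The horizontal axis is the median, over the genes of each group, of the log2 level minus the mean of the 3 w1118 arrays, with a symbol for each knock-out array and the number of genes in brackets. For the listed genes knock-out array 1 sits at −0.33 while the other knock-out arrays sit at about 0, and the other chromosome arms stay within 0.06 of 0.

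The genes divided into several patterns over the arrays. For 12 of 44 (27.3%) all 3 knock-out arrays lay below all 3 w1118 arrays, which held for 13.1% of all genes. These were yellow-h, Zip102B, dpr7, NfI, bt, Syt7, Asator, unc-13, PMCA, Pur-alpha, onecut and Cals. For 15 (34.1%, against 8.72% of all genes) knock-out array 1 alone lay below the w1118 arrays, and the other knock-out arrays did not. They included zfh2, Eph, Ephrin, myo, Actbeta and ATPsynbeta. For 4 genes (Taf3, MED26, fuss and Zyx) all knock-out arrays lay above all w1118 arrays, against 15.7% of all genes. In ci, Gat, Ank, PlexB, Sox102F and dati 2 of the 3 knock-out arrays were below the w1118 range (6 genes, 13.6%, against 12.5% of all genes), and in Ekar and toy 1 array other than array 1 was. The genes ey, sv, fd102C, Crk and Rad23 had no knock-out array below the w1118 range and were not above it throughout (11.4%, against 35.7%).

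In the fit across all 18769 probe sets, 3 of the 44 genes were called lower in the knock-out (adjusted p below 0.05) and 0 were called higher, against 2.63% and 1.88% of all genes. At an unadjusted p under 0.05 the limma fit had 9 lower and 2 higher, against 11.1% and 11.8% of all genes. The called genes were yellow-h, Zip102B and dpr7. Without knock-out array 1 the count was again 3, and these were the same genes, against 2.27% of all genes. With the replicate number as a block it was 5, against 3.86% of all genes, with bt and Syt7 added. Without w1118 array 1 it was 1, Zip102B, and 1 gene, Zyx, was called higher with array weights. Because the chromosome was chosen on this contrast, nothing is read from these counts beside their background.

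**Figure D2:**
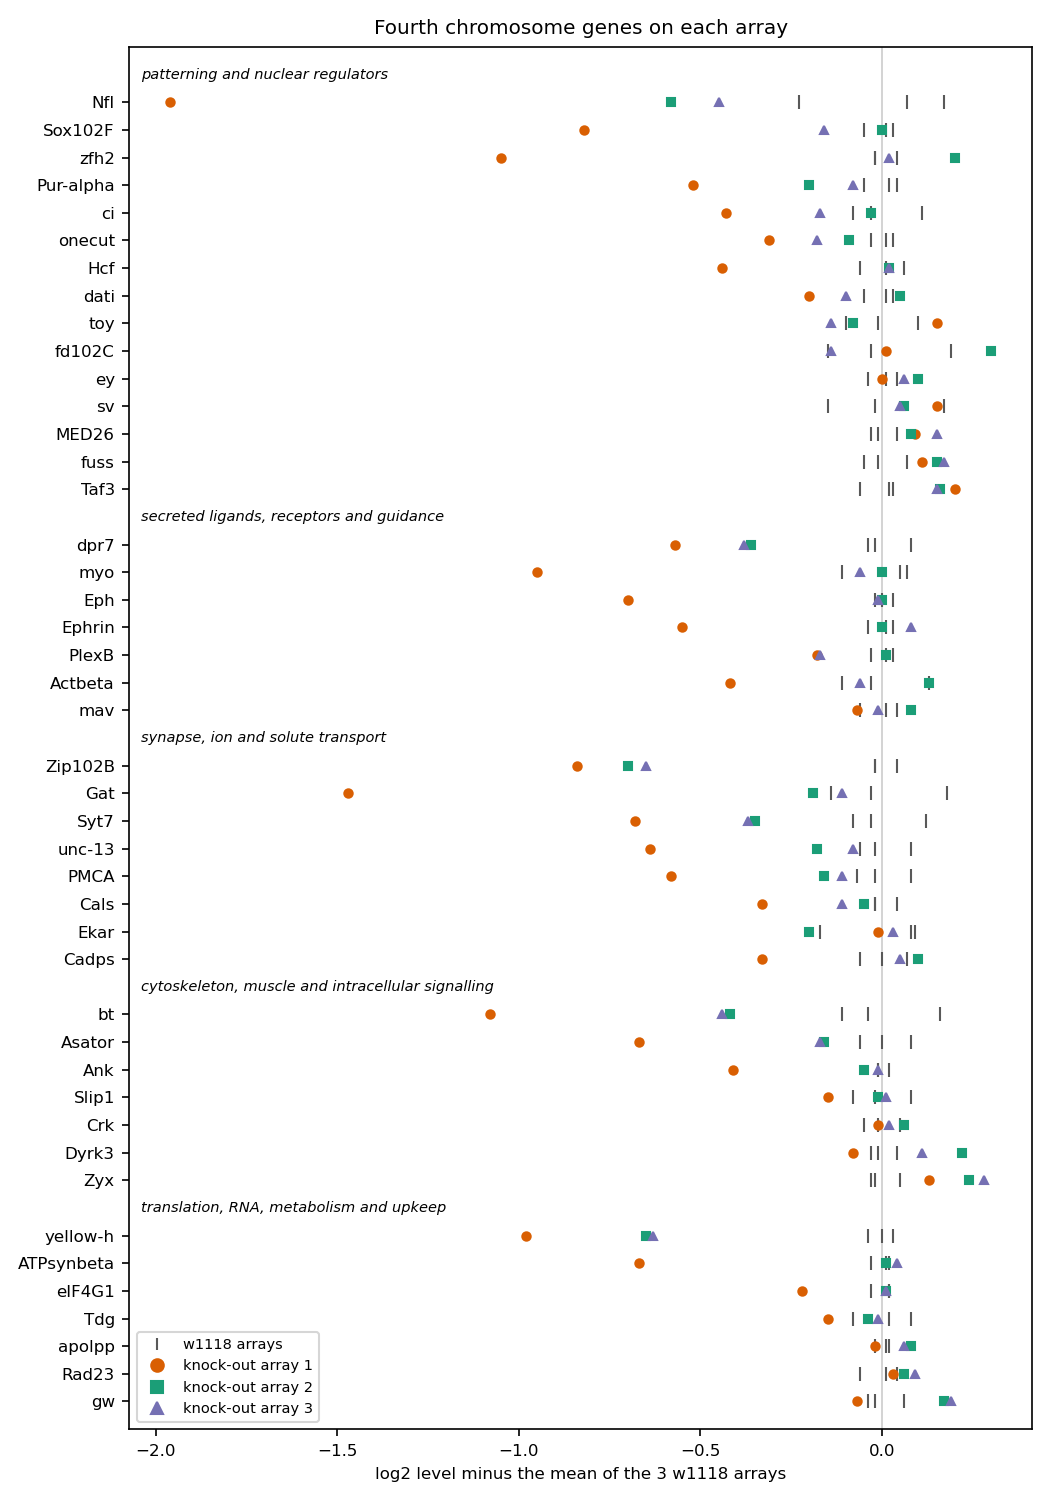
Each row is a listed gene, grouped by role and sorted by its difference, and the horizontal axis is the log2 level minus the mean of the 3 w1118 arrays. Vertical ticks are the w1118 arrays and coloured symbols the knock-out arrays. Knock-out array 1 lies far to the left in many rows where the other knock-out arrays fall among the ticks, while in yellow-h, Zip102B and dpr7 all 3 knock-out arrays are shifted.

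The largest set of listed genes was that of patterning and nuclear regulators, of which 15 of 18 were measured. None of them was called in either direction by limma, against 2.63% lower and 1.88% higher of all genes. At an unadjusted p under 0.05 limma had 3 of the 15 lower and 1 higher, against 11.1% and 11.8% of all genes. Their median difference was −0.08 log2, or 0.01 without knock-out array 1. NfI, a transcription factor of the nuclear factor I family, read 6.90, 7.30 and 7.20 in w1118 and 5.17, 6.55 and 6.68 in the knock-out. All of its knock-out arrays were low, and array 1 was by far the lowest. The difference was −1.0 log2 (SE 0.36), and −0.51 (SE 0.13) without that array.

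Sox102F, a transcription factor with a Sox-type HMG box, read 6.78, 6.80 and 6.72 in w1118 and 5.95, 6.77 and 6.61 in the knock-out. Here array 1 was low and array 2 fell within the w1118 range. The difference was −0.33 log2 (SE 0.19) with all arrays and −0.08 (SE 0.08) without array 1. A similar picture held for zfh2, a zinc-finger and homeodomain protein gene, at 8.08, 8.14 and 8.08 in w1118 and 7.05, 8.30 and 8.12 in the knock-out. Its difference turned from −0.28 (SE 0.29) to 0.11 (SE 0.09) without array 1.

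The Hedgehog effector ci read 11.74, 11.93 and 11.79 in w1118 and 11.39, 11.79 and 11.65 in the knock-out, and its groups overlapped. Its difference was −0.21 log2 (SE 0.11), and −0.10 (SE 0.09) without array 1. The eye selector gene ey had a difference of 0.05 log2 (SE 0.07, and 0.08 without array 1) and toy one of −0.02 (SE 0.10, and −0.11 without array 1). In ey, knock-out values of 7.49, 7.59 and 7.55 overlapped the w1118 values of 7.45, 7.50 and 7.53.

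Some nuclear regulators were among the listed genes with the highest differences. Taf3, a subunit of the TFIID complex that binds core promoters, read 11.16, 11.25 and 11.24 in w1118 and 11.42, 11.38 and 11.37 in the knock-out. All 3 knock-out arrays were above w1118, with a difference of 0.17 log2 (SE 0.07). MED26, a subunit of the Mediator complex that links activators to RNA polymerase, read 11.56, 11.54 and 11.61 in w1118 and 11.66, 11.65 and 11.72 in the knock-out (0.11 log2, SE 0.07). The Ski and Sno family gene fuss read 6.77, 6.89 and 6.81 in w1118 and 6.93, 6.97 and 6.99 in the knock-out (0.14 log2, SE 0.07). None of these 3 passed the threshold. In the other direction onecut and Pur-alpha, a nucleic acid binding protein gene, had all knock-out arrays below w1118, with differences of −0.20 (SE 0.08) and −0.27 (SE 0.12), and −0.14 and −0.15 without array 1.

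Of the secreted ligands, receptors and guidance genes 7 of 8 were measured. By limma 1 was called lower and 0 higher, against 2.63% and 1.88% of all genes. At an unadjusted p under 0.05 in limma 1 was lower and 0 higher, against 11.1% and 11.8% of all genes. All 7 had a difference at or below 0, with a median of −0.16 log2, which was −0.01 without knock-out array 1. The called gene, dpr7, encodes an immunoglobulin-domain surface protein of the dpr family, which takes part in the recognition between neurons. It read 9.82, 9.84 and 9.94 in w1118 and 9.29, 9.50 and 9.48 in the knock-out. The groups were separate, with a 1.36-fold lower level (−0.44 log2, SE 0.08, and −0.37 without array 1). Its call was lost when any array other than knock-out array 1 was left out.

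None of the 3 ligands of the TGF-beta superfamily on the chromosome was called. Myoglianin (myo) read 6.05, 6.03 and 5.87 in w1118 and 5.03, 5.98 and 5.92 in the knock-out. Array 1 alone was low, and the difference went from −0.34 log2 (SE 0.23) to −0.03 (SE 0.09) without it. Activin-beta (Actbeta) had a difference of −0.11 (SE 0.14) and 0.04 without array 1, and maverick (mav) was at 10.75 in both genotypes. The receptor tyrosine kinase gene Eph and its ligand gene Ephrin also had 1 low array. Eph stood at −0.70 log2 from the w1118 mean in knock-out array 1 and read 10.70 and 10.69 in the others, against 10.68, 10.73 and 10.70 in w1118, and Ephrin read 9.51, 10.06 and 10.14 against 10.07, 10.09 and 10.02. Without array 1 their differences were −0.01 and 0.04 log2 (SE 0.07 and 0.08). PlexB, a receptor for semaphorins, had a difference of −0.12 (SE 0.08), with overlapping groups.

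Among genes of the synapse and of ion and solute transport, 8 of 10 were measured and all 8 had differences below 0, with a median of −0.29 log2. This set kept a lower median without knock-out array 1 (−0.13), when 7 of 8 were below 0. Of the 8, 1 (Zip102B) was called lower and 0 were called higher, against 2.63% and 1.88% of all genes. At an unadjusted p under 0.05 in limma 2 were lower and 0 higher, against 11.1% and 11.8% of all genes. Zip102B encodes a transporter of the ZIP family, which carries zinc and related metals into the cytosol. It read 10.13, 10.13 and 10.19 in w1118 and 9.31, 9.45 and 9.50 in the knock-out, so that the knock-out arrays lay close together and well below. The level was 1.65-fold lower (−0.73 log2, SE 0.08), and the difference stayed between −0.77 and −0.65 in all 15 alternatives, in each of which it was called.

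Syt7, a synaptotagmin that senses calcium at membranes, read 8.89, 8.94 and 9.09 in w1118 and 8.29, 8.62 and 8.60 in the knock-out. The groups were separate and the difference was −0.47 log2 (SE 0.11), or −0.36 (SE 0.09) without array 1. It was not called, but was called with the replicate block and with array weights. Gat, which encodes a transporter that clears the transmitter GABA, read 8.66, 8.77 and 8.98 in w1118 and 7.33, 8.61 and 8.69 in the knock-out. Array 1 was more than 1 log2 unit below all others, and the difference of −0.59 (SE 0.33) was −0.15 (SE 0.11) without it.

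The vesicle-priming gene unc-13 and the calcium pump gene PMCA had smaller differences in which all knock-out arrays were below w1118. The first had −0.30 log2 (SE 0.14) and the second −0.28 (SE 0.13), and both were at −0.13 without array 1. Cadps, which acts in the release of dense-core vesicles, and the kainate-type glutamate receptor gene Ekar were at −0.06 each (SE 0.12 and 0.10), with overlapping groups. Without array 1 they were at 0.07 and −0.09.

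Of the genes of the cytoskeleton, muscle and intracellular signalling 7 of 10 were measured. By limma none was called, against 2.63% lower and 1.88% higher of all genes. At an unadjusted p under 0.05 in limma 2 were lower and 1 higher, against 11.1% and 11.8% of all genes. The median of these genes was −0.04 log2 (0.01 without knock-out array 1). With centring on array medians, which raised the medians of the other chromosome arms too, it was 0.03. It was −0.34 without probe sets whose suffix marks a match to several transcripts. That setting left out Ank, Crk, Dyrk3 and Zyx, so the median of this set depends on the choice of probe sets. Bent (bt) encodes projectin, a giant protein of the sarcomere, and read 11.83, 11.90 and 12.10 in w1118 and 10.86, 11.52 and 11.50 in the knock-out. All knock-out arrays were below w1118. The level was 1.57-fold lower (−0.65 log2, SE 0.18), the difference was −0.43 (SE 0.10) without array 1, and the gene was called with the replicate block alone among the alternatives. Beside it, the 10 measured muscle markers of other chromosomes all had differences below 0. Of these, 5 were called lower, against 2.63% of all genes, and 4 without knock-out array 1, against 2.27%. Their median was −0.39 log2 (−0.36 without that array), and their mean level was 11.19 to 11.38 log2 in the knock-out arrays against 11.74 to 11.90 in w1118. The part of the muscle markers in the value of bt was not tested.

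Asator, a kinase of the tau tubulin kinase family, read 9.44, 9.50 and 9.58 in w1118 and 8.83, 9.34 and 9.33 in the knock-out (−0.34 log2, SE 0.14, and −0.17 without array 1). Zyx, the fly zyxin, a protein of cell adhesions and the actin cytoskeleton, had the highest difference of the listed genes. It read 11.47, 11.55 and 11.48 in w1118 and 11.63, 11.74 and 11.78 in the knock-out. All knock-out arrays were above, by 0.22 log2 (SE 0.07), or 0.26 without array 1. The adaptor gene Crk (0.03, SE 0.07) and Slip1 (−0.04, SE 0.08) differed by less than their errors.

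Of the genes of translation, RNA, metabolism and upkeep 7 of 8 were measured. By limma 1 was called lower and 0 higher, against 2.63% and 1.88% of all genes. At an unadjusted p under 0.05 in limma 1 was lower and 0 higher, against 11.1% and 11.8% of all genes. The median was −0.07 log2, and 0.02 without knock-out array 1. With centring on array medians, which raised the medians of the other chromosome arms too, it was 0.01. The called gene was yellow-h, a member of the family named after the pigment gene yellow. It read 9.23, 9.19 and 9.26 in w1118 and 8.25, 8.58 and 8.60 in the knock-out. The knock-out was 1.68-fold lower (−0.75 log2, SE 0.10, and −0.64 without array 1), with a wide gap between the groups. The call was lost in 1 of 15 alternatives, the one without w1118 array 1.

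The gene of the catalytic beta subunit of mitochondrial ATP synthase, ATPsynbeta, read 13.30, 13.34 and 13.35 in w1118 and 12.66, 13.34 and 13.37 in the knock-out. Array 1 alone was low, and the difference turned from −0.21 log2 (SE 0.18) to 0.02 (SE 0.07) without it. The gene gw, whose protein acts with Argonaute in silencing by microRNAs, read 11.71, 11.95 and 11.97 in the knock-out against 11.76, 11.84 and 11.74 in w1118. Its difference was 0.09 (SE 0.09), or 0.18 without array 1. The proteasome shuttle gene Rad23 (0.06), the lipophorin gene apolpp (0.04), the scaffold gene eIF4G1 of cap-dependent initiation (−0.07) and the DNA glycosylase gene Tdg (−0.07) had differences no larger than their standard errors of 0.07 to 0.09.

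**Figure D3:**
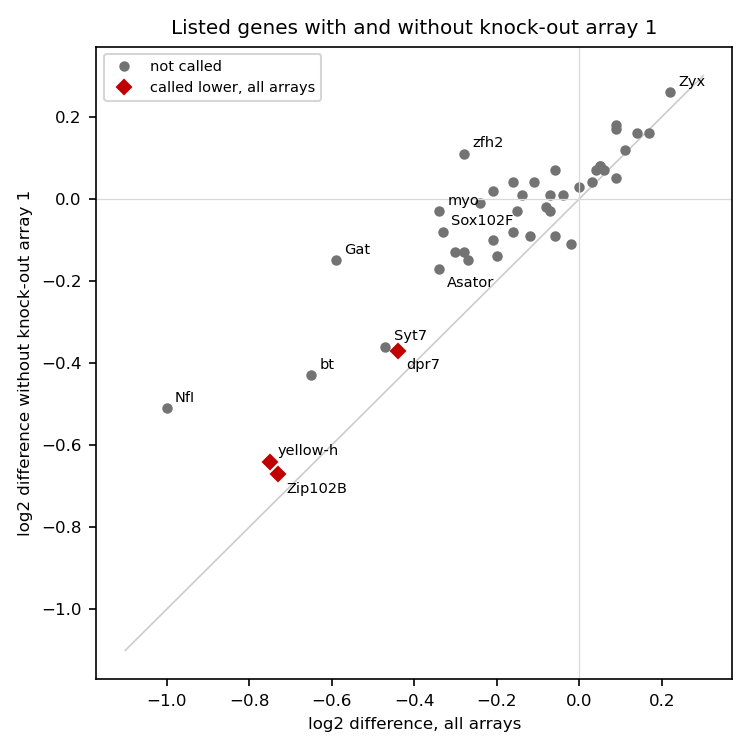
Each point is a listed gene, with its log2 difference (knock-out minus w1118) over all arrays on the horizontal axis and without knock-out array 1 on the vertical axis; the line marks equality. The 3 called genes lie near the line, at −0.75, −0.73 and −0.44 against −0.64, −0.67 and −0.37, whereas Gat, zfh2, myo and Sox102F move to −0.15, 0.11, −0.03 and −0.08.

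For 7 listed genes the array held more than 1 probe set, and these did not always behave alike. The 3 probe sets of PMCA had differences of −0.28, −0.43 and −0.79 log2 (SE 0.13, 0.27 and 0.21), and −0.13, −0.08 and −0.54 without knock-out array 1. For Cadps the brighter set had −0.06 (SE 0.12) and the dimmer −0.65 (SE 0.39). The dimmer one read 7.13, 8.66 and 8.77 in the knock-out against 8.76, 8.76 and 8.99 in w1118, so that array 1 alone was far below, and without it the difference was −0.12. The sets of ATPsynbeta had −0.21 and −0.05 (SE 0.18 and 0.07). None of these additional sets was called.

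The unlisted genes of the chromosome had a lower median than the listed ones, a difference that was not tested. Of 21, 5 were called lower and 1 higher, against 2.63% and 1.88% of all genes. Without knock-out array 1, 6 were called lower, against 2.27% of all genes. CG1674, RhoGAP102A and mGluR were gained there, and CG31999 and Mitf were lost. In 11 all knock-out arrays lay below w1118, against 13.1% of all genes. The median was −0.37 log2 (−0.16 without knock-out array 1). CG32017 read 8.97, 8.89 and 9.09 in w1118 and 7.89, 8.44 and 8.24 in the knock-out (1.73-fold lower, −0.79 log2, SE 0.14). CG1909 was 1.48-fold lower (−0.57, SE 0.11), CG31997 1.44-fold (−0.53, SE 0.08) and CG31999 1.31-fold (−0.39, SE 0.08). Without knock-out array 1 these 4 differences were −0.64, −0.44, −0.55 and −0.33. The call of CG32017 was lost in 4 of 15 alternatives, that of CG1909 in 5 of 14, that of CG31997 in 2 of 15 and that of CG31999 in 7 of 15, among them the one without knock-out array 1.

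Mitf, a transcription factor gene known for its control of lysosomes and the vacuolar proton pump, was 1.30-fold lower (−0.37 log2, SE 0.07, and −0.38 without knock-out array 1) at 6.71, 6.77 and 6.62 against 7.09, 7.05 and 7.08, a call lost in 9 of 15 alternatives. Rnf11, a RING-finger protein gene, was the 1 gene of the chromosome called higher, with 10.53, 10.77 and 10.66 in the knock-out against 9.88, 9.81 and 10.07 in w1118. It was 1.66-fold higher (0.73 log2, SE 0.10), and 0.80 without knock-out array 1. Its probe set, like that of CG1909, carries a suffix given to sets that can match several transcripts. So do those of the listed genes Ank, Cals, Crk, Dyrk3, Eph, Ephrin, Gat, gw, Hcf, MED26, myo, Pur-alpha, Syt7 and Zyx. Calls were lost without w1118 array 1 for all 6 of the called unlisted genes.

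Along the chromosome a run of neighbouring genes, with 2 exceptions, was lower on every knock-out array. In the order of the gene table of assembly Release 6, 13 measured genes follow each other from CG31997 to Zip102B, with 2 protein-coding genes between them that were not measured here. In 11 of the 13 all knock-out arrays lay below all w1118 arrays, against 13.1% of all genes, the exceptions being Crk and Rad23. The same held for 12 of the other 52 genes of the chromosome. The run holds the listed genes yellow-h, dpr7, NfI, Syt7 and Zip102B and 5 of the 8 genes of the chromosome called lower. Its median difference was −0.66 log2, or −0.38 without knock-out array 1, and in the single knock-out arrays it was −0.84, −0.47 and −0.38. The other 52 genes had a median of −0.10, with −0.30 in knock-out array 1 and −0.01 in knock-out array 3, and 0.01 without array 1. Rnf11, the gene called higher, comes directly after Zip102B. The ends of this run were set after the values were seen, so no test applies to it.

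**Figure D4:**
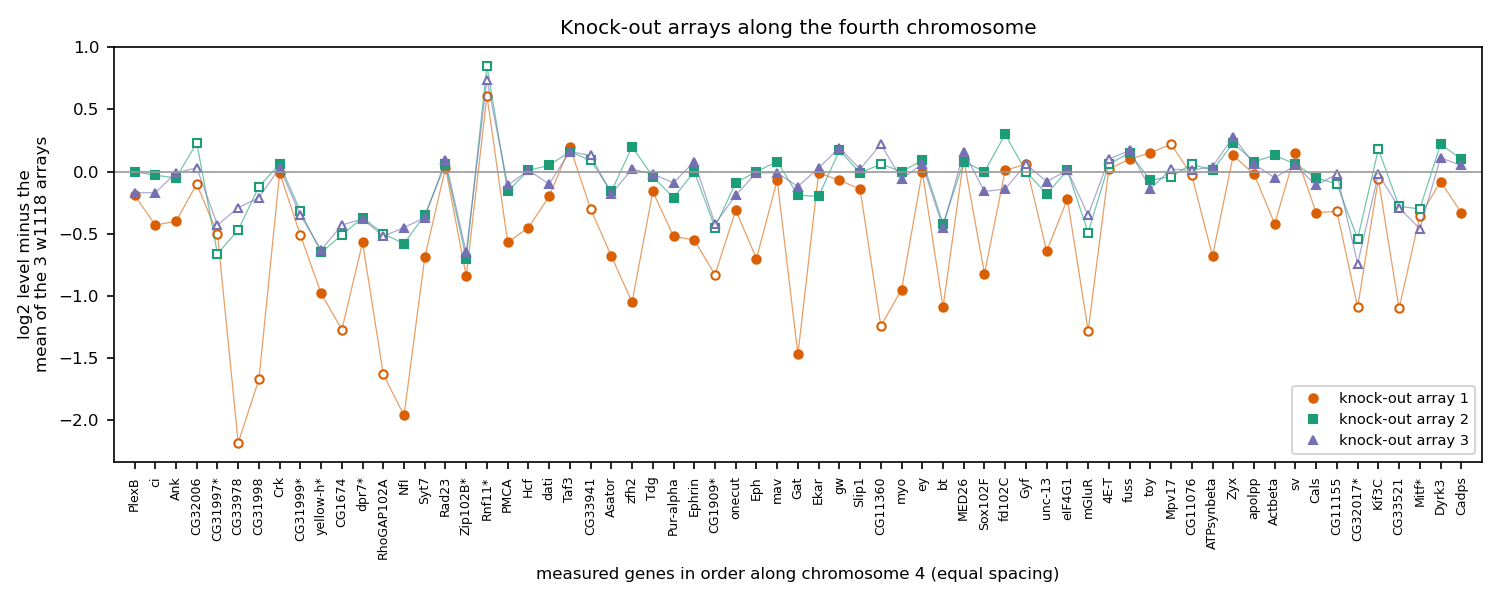
The horizontal axis lists the 65 measured genes in their order along chromosome 4, equally spaced, and the vertical axis is the log2 level in each knock-out array minus the w1118 mean. Filled symbols are listed genes, open symbols unlisted ones and an asterisk marks a called gene. All 3 knock-out arrays dip between CG31997 and Zip102B, except in Crk and Rad23. The deepest points, there and elsewhere, are those of knock-out array 1.

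Proteins that shape chromatin on the fourth chromosome and in heterochromatin were described from a list of 19, of which 16 were measured. Their median difference was 0.15 log2, against 0.02 for all genes. By limma 0 were called higher, against 1.88% of all genes. At an unadjusted p under 0.05 in limma 7 of the 16 were higher, against 11.8% of all genes. Pof itself, named for its role on this chromosome and outside the naming rule, read 8.68, 8.95 and 8.73 in w1118 and 9.04, 9.05 and 8.93 in the knock-out, so that the groups overlapped by a little. Its difference was 0.22 log2 (SE 0.09, limma adjusted p = 0.246, and 0.0731 to 0.563 over the alternatives). The gene of HP1 itself, likewise named outside the rule, had 0.11 (SE 0.08, limma adjusted p = 0.52, range 0.36 to 0.845).

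The HP1 paralogue gene HP1b had 0.22 log2 (SE 0.08, limma adjusted p = 0.2, range 0.0931 to 0.512) and HP6 0.37 (SE 0.11, limma adjusted p = 0.123, range 0.0521 to 0.337). JIL-1, which encodes a histone H3 kinase of open chromatin, was the 1 gene of the list called lower, against 2.63% of all genes. It read 8.33, 8.31 and 8.16 in w1118 and 7.75, 7.92 and 7.62 in the knock-out (−0.50 log2, SE 0.10, limma adjusted p = 0.0367). This call was lost with median centring, without each w1118 array and without knock-out array 1 or 3 (adjusted p 0.00987 to 0.155 over its alternatives). JIL-1 lies on arm 3L.

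Genes that lie in the heterochromatin of chromosomes 2 and 3, and so share that chromatin setting, had a median near that of all genes. Of 20 listed 12 were measured, with a median of 0.03 log2 and 3 differences below 0. Of the 12, 1 (spok, a gene of ecdysone synthesis) was called lower, against 2.63% of all genes. It went from 4.84 ± 0.11 to 4.02 ± 0.14 (SD, n = 3 each, −0.83 log2, limma adjusted p = 0.00498, range 0.0016 to 0.0289). The knock-out mean lies under the first quartile of all values, 4.33, so the size of this change is uncertain. Whether the difference between these 12 genes and the fourth chromosome exceeds the spread was not tested. The next smallest p-values were those of nvd (0.23 log2, limma adjusted p = 0.301, range 0.0665 to 0.535) and Yeti (0.16, adjusted p = 0.31, range 0.18 to 0.644).

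The partners of ci in Hedgehog signalling were described from 13 measured genes of other chromosomes. By limma 0 were called, against 2.63% lower and 1.88% higher of all genes. At an unadjusted p under 0.05 in limma there were 0, against 11.1% lower and 11.8% higher of all genes. The median of the 13 was 0.03 log2. The receptor gene ptc had a difference of −0.28 log2 (SE 0.20, limma adjusted p = 0.504), which was −0.04 without knock-out array 1. Su(fu), an inhibitor that holds Ci in the cytoplasm, had 0.15 (adjusted p = 0.416) and the co-receptor gene boi 0.14 (adjusted p = 0.439). Of the 15 listed partners of the Wingless pathway 4 were measured, and pan and lgs were not among them. The rest may still be on the array, under probe sets with several symbols or no listed one. Of the 4 measured, 0 were called by limma and 0 had an unadjusted p under 0.05, beside the same shares of all genes. CtBP had −0.12, gro 0.04 and Axn 0.02 log2 (adjusted p = 0.534, 0.897 and 0.939).

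Marker lists of cell types in the embryo were set beside the fourth chromosome genes, many of which act in neurons. All 11 measured neuron markers had differences below 0, with a median of −0.30 log2. Without knock-out array 1 the median was −0.12 and 10 of 11 were below 0. The medians of the list were −0.40, −0.05 and −0.21 in the 3 knock-out arrays. By limma 0 of them were called, with 4 lower at an unadjusted p under 0.05, against 11.1% of all genes. Their mean level was 7.27 to 7.59 log2 in the knock-out against 7.69 to 7.86 in w1118, and was lowest in knock-out array 1. Of the cuticle-forming epidermis markers, 7 of 9 were below 0 and 1 was called lower, against 44% and 2.63% of all genes. Their mean level was 8.22 to 8.37 in the knock-out against 8.55 to 8.60 in w1118. The muscle and epidermis lists were low on all 3 knock-out arrays, with medians of −0.51, −0.38 and −0.35 for muscle and −0.20, −0.24 and −0.17 for epidermis.

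For the markers of glia, neuroblasts and early maternal transcripts, the mean levels of the lists overlapped between genotypes. Their mean levels in the knock-out were 9.72 to 9.82, 9.60 to 9.93 and 9.10 to 9.40 log2, against 9.61 to 9.76, 9.68 to 9.77 and 8.92 to 9.22 in w1118. Of these 7, 6 and 8 genes, 2, 3 and 3 had differences below 0. All knock-out arrays lay above all w1118 arrays in 3 glia markers, 1 neuroblast marker and 1 maternal one, against 15.7% of all genes. They lay below in 1 maternal marker, against 13.1% of all genes. Of all the markers 1, in the epidermis list, had a mean under the first quartile of all values. The part of any of these lists, or of the RNA quality of knock-out array 1, in the lower values of the fourth chromosome was not tested.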

How the data were processed

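The deposited table held log2 values of 6 arrays, with 183 control probe sets and 18769 others. The log2 scale was inferred from the deposited numbers, between 2.84 and 14.52. How the authors corrected background and normalised is not stated in any source used; affy is named in the submitters' processing notes. There were no detection calls, so whether dim probe sets exceed background is unknown, and precision is limited by the number of arrays, 3 per genotype. No array was dropped.

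Probe sets were named from the platform annotation, in which 13647 had 1 symbol, 402 had several and 4720 were not listed; 13544 were matched to the RefSeq table of Release 6, used for names, chromosome and gene order. No coordinates are printed, since the build behind the array is not stated. The knock-out was set against w1118 by lmFit and eBayes of limma 3.58.1 (R 4.3.3) without covariates, with Benjamini-Hochberg adjustment over all probe sets and a threshold of 0.05. Folds are 2 raised to the log2 difference, and each SE is the moderated standard error. Counts over genes use the brightest probe set. Tables and plots were made in Python 3.11.15 with pandas 2.3.3 and matplotlib 3.10.9, and the fit was tested on simulated data.

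The listed genes, lists and settings were chosen with earlier results of these data known. Values are named for the called genes, the 10 lowest and 5 highest differences, 2 genes per role, 6 called unlisted genes, 3 genes of smallest p per other list, and Clbn; other genes named serve a group. Deviations from the group means correlated at 0.252, 0.227 and 0.389 between same-numbered arrays, and at −0.333 to 0.089 between others. The labels state no shared day or batch, so a pairing by replicate number is not established. The main fit did not use one. With the replicate block 3.86% of all genes were called lower, against 2.63% in the main fit. Alternatives were quantile normalisation, median centring, the replicate block, array weights, filters on dim probe sets, an intensity trend with a robust fit, other probe set rules, all 65 genes of the chromosome, the listed symbols as written (chosen after seeing the data), and leaving out each array.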

Additional observations from a re-analysis of the deposited data

How the results depend on the processing

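The count of listed genes called lower was 3, and 5 with the replicate block, 4 with array weights, 8 among all genes of chromosome 4 and 1 to 3 when single arrays were left out. The count called higher was 0, and 1 with array weights and 1 among all genes of the chromosome. The median stayed below 0 in all alternatives, at −0.21 to −0.02 log2 when single arrays were left out and at −0.15 to −0.06 otherwise. With 0 to 1 genes called in the chromatin protein list without single arrays and 0 with median centring, the count called in that list rests on JIL-1 alone. The median of the list was 0.15 log2 in the main fit, 0.22 with median centring and 0.11 to 0.17 in the other alternatives. For the heterochromatin genes of chromosomes 2 and 3 the count was 0 with the filter at the median level, which left spok out, and their median was 0.10 with median centring and 0.00 to 0.05 without single arrays; centring moved all arms by a like amount, to medians of 0.09 to 0.10. Beyond bt and Syt7 the replicate block changed no call of a named gene of the chromosome. The cause of these changes was not tested. Arrays without detection calls limit what can be said of dim probe sets such as those of sv, nvd and spok.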
